A study of Drosophila melanogaster with 2 samples.

Results

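The 10 genes described here, Sh, Shab, Shal, Shaw, eag, sei, Elk, slo, SLO2 and KCNQ, encode pore-forming subunits of potassium channels. They were chosen by name and are 10 of 13968 protein-coding genes of the fly annotation. The data are maps of open chromatin by ATAC-seq, in which a transposase, Tn5, cuts accessible DNA and tags it with sequencing adapters, in nuclei of the mushroom body (MB), the memory centre of the fly brain whose main neurons are Kenyon cells. There was 1 group with 2 replicates: naive males of the genotype w*;UAS-Unc84::2xGFP/+;R14H06-Gal4/+, heterozygous for both transgenes, collected at the time that matches 1 h after the onset of courtship training. Each replicate was a pool of 50 to 60 heads. The R14H06-Gal4 driver decides which nuclei carry the GFP tag on the nuclear envelope and so which nuclei were pulled out, and no trained or whole-head sample was analysed here. A peak that is lower may be open in fewer of the tagged nuclei or less open in each, and these cannot be told apart in pooled nuclei.

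Potassium channels let potassium leave the cell and so end action potentials, set the resting potential and limit how often a neuron can fire. Voltage-gated subunits assemble into tetramers around 1 pore, and the genes of the Shaker, Shab, Shal and Shaw subfamilies were named in Drosophila. Several of these genes are long and start transcripts at more than 1 promoter, which lets different cells make subunits with different amino ends. For slo, promoters that are used in different tissues are known in flies. The question put to the peak lists was which of these promoters are open in MB nuclei, and how open they are beside those of other genes.

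For each gene the peaks of both lists within the gene and 5 kb on either side were taken, and its TSS peak was the most enriched peak no more than 500 bp from an annotated transcription start site (TSS). Fold enrichment is the number of fragments or cut sites piled up at the peak's summit, the pileup, over a local background from the same library. Start sites up to 500 bp apart were joined to 1 promoter, numbered from the most upstream, and a promoter was called open where a peak lay within 500 bp of it in both replicates. The DNA of 9 promoters is printed. For Sh, Shaw and slo an open promoter stands beside one that was not open, since the results for these genes turn on that contrast, and for Shab, Shal and eag an open promoter is given for comparison. Promoter sequences of the other 4 genes are not printed here. Each sequence runs 5′ to 3′ on the strand of the gene, from 150 bases before the start site through the initial 30 bases of the transcript, in Release 6 (dm6) coordinates. Capitals mark TCAGT, letters of the initiator element at which transcription of many fly genes begins, where they lie within 10 bases of the start site on the transcribed strand.
Sh promoter 1, open, chrX:18063218-18063397, minus strand: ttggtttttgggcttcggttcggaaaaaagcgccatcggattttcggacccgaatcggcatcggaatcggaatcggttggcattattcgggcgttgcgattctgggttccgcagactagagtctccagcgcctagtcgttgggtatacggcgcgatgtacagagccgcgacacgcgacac
Sh promoter 2, not open, chrX:18015206-18015385, minus strand: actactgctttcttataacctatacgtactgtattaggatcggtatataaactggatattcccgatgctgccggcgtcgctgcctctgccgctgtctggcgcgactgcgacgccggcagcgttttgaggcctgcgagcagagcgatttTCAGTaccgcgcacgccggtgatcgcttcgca
Shab promoter 2, open, chr3L:2896593-2896772, plus strand: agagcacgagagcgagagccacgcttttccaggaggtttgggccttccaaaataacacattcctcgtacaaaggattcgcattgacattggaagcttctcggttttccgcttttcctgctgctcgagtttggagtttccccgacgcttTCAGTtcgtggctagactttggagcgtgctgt
Shal promoter 1, open, chr3L:19584539-19584718, minus strand: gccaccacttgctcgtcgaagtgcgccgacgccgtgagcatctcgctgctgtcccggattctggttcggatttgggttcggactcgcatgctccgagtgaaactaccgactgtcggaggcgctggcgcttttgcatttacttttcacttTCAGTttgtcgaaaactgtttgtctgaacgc
Shaw promoter 1, open, chr2L:3718035-3718214, plus strand: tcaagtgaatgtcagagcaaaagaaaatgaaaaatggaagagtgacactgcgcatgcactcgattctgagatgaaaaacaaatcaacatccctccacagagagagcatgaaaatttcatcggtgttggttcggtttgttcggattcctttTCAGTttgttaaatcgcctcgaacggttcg
Shaw promoter 2, not open, chr2L:3721186-3721365, plus strand: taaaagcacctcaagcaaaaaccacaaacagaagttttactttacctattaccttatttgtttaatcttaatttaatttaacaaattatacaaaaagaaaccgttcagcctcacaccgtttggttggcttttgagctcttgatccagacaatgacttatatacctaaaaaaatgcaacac
eag promoter 1, open, chrX:14955327-14955506, plus strand: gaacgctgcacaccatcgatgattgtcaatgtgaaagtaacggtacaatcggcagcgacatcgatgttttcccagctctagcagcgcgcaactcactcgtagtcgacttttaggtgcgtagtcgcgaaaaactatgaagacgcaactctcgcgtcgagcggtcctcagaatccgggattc
slo promoter 1, open, chr3R:24662341-24662520, plus strand: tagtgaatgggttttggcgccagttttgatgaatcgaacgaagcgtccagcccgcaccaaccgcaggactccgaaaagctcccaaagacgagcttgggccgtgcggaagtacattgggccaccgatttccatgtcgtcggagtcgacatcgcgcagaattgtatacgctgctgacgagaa
slo promoter 2, not open, chr3R:24667996-24668175, plus strand: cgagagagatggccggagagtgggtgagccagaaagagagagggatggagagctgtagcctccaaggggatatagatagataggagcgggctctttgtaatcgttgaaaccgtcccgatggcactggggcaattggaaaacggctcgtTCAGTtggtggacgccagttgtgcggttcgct

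The initiator letters were found at open promoters and at promoters that were not open. TCAGT lay within 10 bases of 10 of the 26 annotated start sites of the 10 genes (38.5%), beside 14.1% of the 19630 start sites of all protein-coding genes. It was present at 7 of 18 start sites of open promoters and at 3 of 8 start sites of the others. The TATA letters, TATAAA between 45 and 15 bases before the start site, were at 0 of the 26, beside 7.97% of all start sites. These matches describe the letters in these windows only.

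All 10 genes had a TSS peak in both replicates. Over all protein-coding genes this held for 55.9%, and for 87.8% of the 1133 genes with at least 3 annotated start sites. Of the 10 genes, only Sh, Shab and SLO2 have that many. To place a TSS peak among others, its percentile was taken as the percent of protein-coding genes with a TSS peak in that replicate whose fold enrichment was lower, among 7997 genes in replicate 1 and 7995 in replicate 2. The 10 genes had a median percentile of 76.3 by replicate 1 and 79.1 by replicate 2, a mean of 77.7 ± 1.99 (SD, n = 2), and the median over all such genes was 51.0. The genes were spread over nearly the whole range, from Elk at 15.4 ± 0.404 to KCNQ at 99.8 ± 0.0176 (SD, n = 2). Some of these peaks are shared: those of Shaw, eag, sei and slo also lay within 500 bp of the start of lectin-24A, CG9030, tsr and Ppox, respectively.

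**Figure D1:**
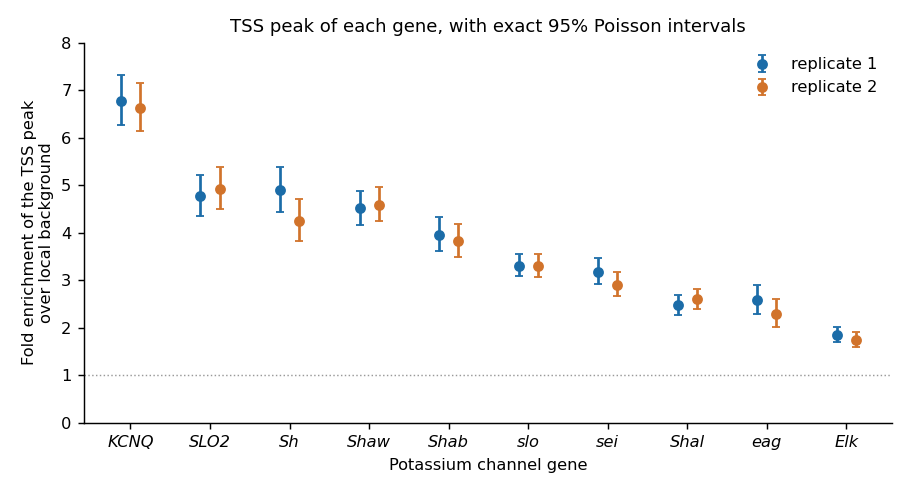
Fold enrichment of the TSS peak over local background (y axis) for each potassium channel gene (x axis, ordered by the mean), with 1 point per replicate and exact Poisson 95% intervals of the pileup; the dotted line at 1 marks background. KCNQ stands at 6.78 and 6.63, above the other 9 genes in both replicates, and Elk is lowest at 1.85 and 1.75.

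By fold enrichment, the TSS peaks fell into steps. KCNQ stood apart at the top, with no overlap between its 2 values and those of any other gene. SLO2 (4.76 and 4.92), Sh (4.89 and 4.25) and Shaw (4.52 and 4.59) followed. The values of Sh overlapped those of SLO2 and of Shaw, while both SLO2 values were above both of Shaw. Shab was next at 3.96 and 3.83 and slo at 3.31 and 3.30, with no overlap between the 3 neighbours Shaw, Shab and slo. For sei the values were 3.18 and 2.91, below both of slo, although the 95% counting intervals of these genes overlapped in replicate 1, at 3.08 to 3.55 for slo and 2.92 to 3.46 for sei. Shal (2.48 and 2.60) and eag (2.58 and 2.30) overlapped, and Elk was below both. With 1 group and 2 replicates no test between genes was made, and these intervals cover counting error only.

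Fold enrichment and pileup order the genes differently, because the background differed around them. The background at the TSS peak was 84.7 in replicate 1 and 88.6 in replicate 2 for Sh, close to the lowest value in each list, and 282 and 269 for Elk. Elk had a pileup of 523 and 472, above the 418 and 380 of Sh in both replicates. Ranked by pileup in place of fold enrichment, the mean percentile was 74.8 for Elk, 83.3 for Shal, 95.9 for slo and 59.0 for Sh. It was 89.9 for KCNQ, below slo and close to the 89.1 of Shaw. The part of the local background in the order of the genes was not tested further.

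Both lists are of similar size and depth, with 13868 peaks in replicate 1 and 14583 in replicate 2 and a median summit pileup of 219 and 216. The labelled tissue was checked with marker genes. All 11 Kenyon cell markers and all 4 neuronal markers had a TSS peak in both replicates, with a median percentile of 89.2 for the Kenyon cell list, and 3 of 18 markers of other head cell types (moody, Eaat1 and norpA) did. The genes repo, Mhc and ninaE, which mark glia, muscle and photoreceptors, had none.

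The Shaker gene Sh encodes the channel of the fast A-type current, which turns on and inactivates quickly. It spans 138.9 kb on the minus strand of chromosome X and has 17 annotated transcripts that start at 7 promoters. Of these 7 promoters, 4 were open in both replicates and 3 had no peak in either. The most upstream promoter, at position 18063247, starts 5 transcripts and had the strongest peak, with a fold enrichment of 4.89 (95% interval 4.43 to 5.38) in replicate 1 and 4.25 (3.84 to 4.70) in replicate 2. The 3 open internal promoters were weaker and close to each other. Promoter 5, at 17995601, had values of 2.26 and 2.45, promoter 6, which holds the start sites 17990614 and 17990679, had 2.32 and 2.39, and promoter 7, at 17967225, had 2.58 and 2.62. Promoters 2, 3 and 4, which had no peak, lie together inside the gene at 18015235, 18014505 and 18012397, start 5 transcripts between them, and had their nearest peak 2635 to 3763 bp away. Promoter 2 is printed above among the sequences, and it has the initiator letters that the open promoter 1 lacks.

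The peak at the most upstream Sh promoter differed from each internal one in both replicates by fold enrichment. Tested by an exact conditional binomial test of the pileups given their backgrounds (two-sided, Benjamini-Hochberg over 16 tests), promoter 7 had 0.525 of the enrichment of promoter 1 in replicate 1 (95% interval 0.454 to 0.606, adjusted p = 1.88e-18) and 0.615 in replicate 2 (0.530 to 0.713, adjusted p = 1.23e-10). The ratio was 0.472 and 0.560 for promoter 6 and 0.459 and 0.575 for promoter 5. Between the 3 internal promoters the ratios ran from 0.974 to 1.14 and no pair passed the threshold, the lowest adjusted p being 0.125 by the exact test. Tested on the pileups alone the upstream promoter passed the threshold against each internal one in replicate 1 only. In replicate 2 its pileup was 380, beside 344, 345 and 359 at promoters 7, 6 and 5. The background in replicate 1 was 134 to 150 at the internal promoters and 84.7 at promoter 1.

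**Figure D2:**
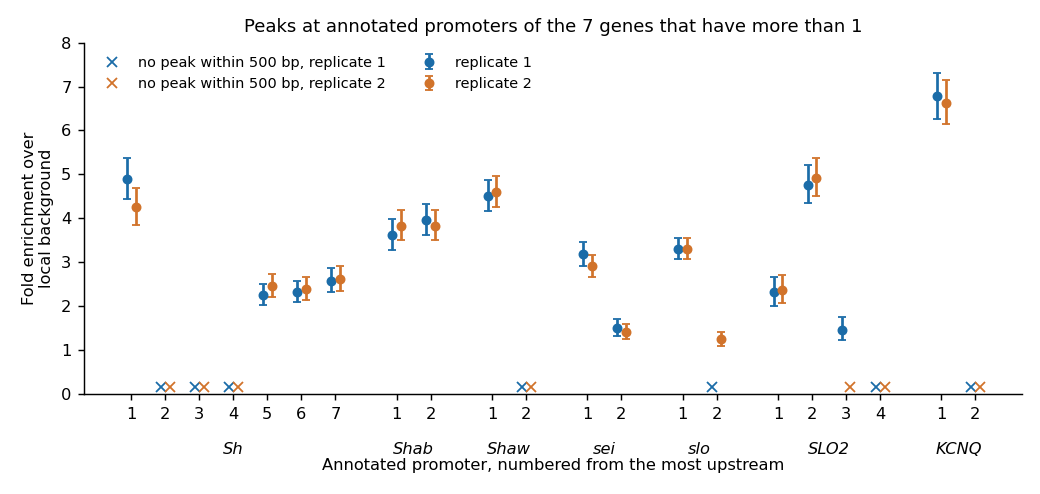
Fold enrichment over local background (y axis) at each annotated promoter of the 7 genes with more than 1 (x axis, numbered from the most upstream), as 1 point per replicate with exact Poisson 95% intervals; crosses near the baseline mark promoters with no peak within 500 bp in that replicate and carry no value. Sh promoters 2, 3 and 4, Shaw promoter 2, SLO2 promoter 4 and KCNQ promoter 2 have a cross in both replicates, while the 2 Shab promoters share 1 peak in replicate 2.

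Having 4 separate open promoters sets Sh among few genes. Of all protein-coding genes, only 2106 have at least 2 annotated promoters, so most could not reach 4, while Sh has 7. Over all protein-coding genes 32 (0.229%) had at least 4 open, and 17 had 4. Among those 17, the genes nearest to Sh in the percentile of their TSS peak (94.2 ± 2.88 for Sh, SD, n = 2) were CG42268 at 92.7 ± 1.36, for, which encodes a cGMP-dependent protein kinase, at 96.0 ± 0.397, and nuf at 92.4 ± 1.25 (SD, n = 2 each). Sh is longer than all 3.

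Shab encodes a delayed rectifier that repolarises the cell more slowly. It spans 64.6 kb of chromosome arm 3L, and its 2 promoters lie close together at the upstream end, each starting 5 transcripts. In replicate 1 they had separate peaks, of 3.62 at promoter 1 and 3.96 at promoter 2, and in replicate 2 a single peak of 2511 bp covered both with a fold enrichment of 3.83. They were therefore counted as 1 separate open promoter and not compared. Shab also held 3 intron peaks, and 2 of them were nearly as strong as the promoter: the peak from 2903015 to 2903644 had 3.59 and 3.29, and that from 2913047 to 2914544 had 3.45 and 3.40.

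Shal encodes the A-type channel of the cell body and dendrites, and has 1 promoter for its 3 transcripts. Its fold enrichment was 2.48 in replicate 1 and 2.60 in replicate 2, at a percentile of 36.9 and 48.1. The peak was 2279 and 2321 bp wide, and its pileup of 564 and 585 stood on a background of 227 and 224. A further peak, of 2.25 and 2.22, lay just upstream at the start of CG9231 and CG9330.

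Shaw encodes a channel that is partly open at rest. Of its 2 promoters on chromosome arm 2L, promoter 1 at 3718185, which starts 4 of the 5 transcripts, was open at 4.52 (95% interval 4.17 to 4.88) and 4.59 (4.25 to 4.95). Promoter 2, at 3721336, starts the remaining transcript and had no peak in either replicate, the nearest being 1720 and 1994 bp away. The sequences of both are printed above, and only that of the open one has the initiator letters. The strongest peak near Shaw was not its own: the peak at CG10019, past the downstream end of the gene, had 5.49 and 5.57.

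The 3 genes of the eag family, eag, sei and Elk, held the lowest TSS peak values together with Shal, with percentiles of 38.4 ± 4.03, 60.9 ± 2.71 and 15.4 ± 0.404 (SD, n = 2 each). The gene eag, named for the leg shaking of its mutants under ether, spans 54.5 kb of chromosome X and has 1 promoter for 7 transcripts. That promoter had 2.58 (95% interval 2.29 to 2.90) in replicate 1 and 2.30 (2.03 to 2.60) in replicate 2, and only 1 further consensus peak lay inside the gene, in an intron at 2.00 and 1.93. A consensus peak is a region to which both replicates contributed at least 1 overlapping peak.

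The value of sei, the fly relative of the human ERG channel of the heart, rests on the distance allowed. The peak counted for its promoter 1 at 24047411, on chromosome arm 2R, lies at the start of tsr, which encodes cofilin. This peak ended 345 bp from the sei start site in replicate 1 and 350 bp in replicate 2, its summit was 1768 and 1453 bp away, and it covered the start site in neither. At the other promoter, 24049203, the peak was weak at 1.498 and 1.41 and also lies near gammaSnap1. Where the summit itself had to lie within 500 bp, the percentile of sei was 4.69. The peaks at the 2 promoters differed 2.13-fold in replicate 1 (95% interval 1.83 to 2.48, adjusted p = 1.5e-23) and 2.06-fold in replicate 2 (1.76 to 2.41, adjusted p = 4.84e-21) by the exact test, as a comparison of the tsr peak with the weaker one.

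Elk, of the same family, starts both its transcripts at 1 promoter at 17873939. The peak there had 1.85 (95% interval 1.70 to 2.02) and 1.75 (1.60 to 1.91), and it lies beside a broader region at the start of Mapmodulin with 2.73 and 2.72. The background around the Elk start site, at 282 and 269, was the highest of the 10 genes. A stretch of 39.4 kb without a peak in either replicate, 74.7% of the gene, followed. The strongest peak of the window came after the end of the gene, at 3.09 and 3.32.

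Among the channels opened by ions, slo encodes the BK channel, which opens with calcium and depolarisation. It spans 49.1 kb of chromosome arm 3R and has 23 transcripts from 2 promoters. Promoter 1, at 24662491, starts 8 of them and was open at 3.31 (95% interval 3.08 to 3.55) and 3.30 (3.08 to 3.54), with a pileup of 774 and 793 that was the highest of the 10 TSS peaks. Promoter 2, at 24668146, starts the other 15 and had no peak in replicate 1 and a weak one in replicate 2, of 1.25 (1.09 to 1.42) and 173 bp from the start site. It is the slo promoter marked as not open among the sequences above and has the initiator letters, while promoter 1 does not. The peak of promoter 1 also covers the start of Ppox, which encodes an enzyme of haem synthesis, and its part in the value was not tested.

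SLO2 encodes a relative of the sodium-activated channels of vertebrates. In contrast to Sh, its strongest peak was at an internal promoter. Promoter 2, at 10395187, had 4.76 (95% interval 4.34 to 5.22) and 4.92 (4.499 to 5.37), and promoter 1, which lies farthest upstream at 10416996 and starts 4 of the 9 transcripts, had 2.31 (2.00 to 2.66) and 2.38 (2.07 to 2.72). The ratio was 2.06 in replicate 1 (1.74 to 2.45, adjusted p = 3.14e-18) and 2.07 in replicate 2 (1.76 to 2.45, adjusted p = 1.11e-19) by the exact test, and it held on the pileups alone. Promoter 3, at 10365187, shows the edge of the rule: a peak of 1.47 lay 156 bp away in replicate 1, and the nearest peak of replicate 2 was 581 bp away, so it was not counted as open. Promoter 4, at 10344149, had its nearest peak 1488 and 1735 bp away.

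KCNQ, whose vertebrate relatives carry the slow M current, had the most enriched promoter of the 10 genes. By fold enrichment this promoter was also one of the highest of all genes. Its peak at 10192394 had 6.78 (95% interval 6.27 to 7.31) in replicate 1 and 6.63 (6.14 to 7.15) in replicate 2, which ranked 19 and 17 among all genes with a TSS peak. The pileup was 652 and 668 on a background of 95.4 and 99.9. Ranked by pileup, KCNQ stood at a mean percentile of 89.9, below the 95.9 of slo. The open KCNQ promoter starts 1 of the 9 annotated transcripts. The promoter at 10154877, from which the other 8 start, had no peak in either replicate, and the nearest ones, 2892 and 2848 bp away, lie at mlt, a gene inside a KCNQ intron.

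Across the 7 genes with more than 1 promoter, the promoter with the most annotated transcripts was not open in 2, slo and KCNQ. The same held for 8.18% of the 1699 protein-coding genes with at least 2 promoters of which at least 1 was open. Over the 10 genes, 56 of 88 transcripts (63.6%) start at an open promoter, beside 62.5% of the 30773 transcripts of all protein-coding genes. In all, 16 of 24 annotated promoters were open, 6 had no peak in either replicate and 2 had a peak in 1 replicate. With promoters that share a peak counted once, 15 were open. Sh, SLO2 and sei had at least 2, which is 3 of 7 genes, beside 26.3% of 2106 genes with at least 2 annotated promoters. The place of sei rests on the 500 bp allowed, since no peak covered either of its start sites. Where a peak had to cover the start site, 13 separate promoters were open. Of the 8 promoter pairs in Sh, SLO2 and sei, 5 differed in both replicates. The strongest and the weakest open promoter differed in all 3 genes, and in 72.9% of the 554 genes with such a pair.

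**Figure D3:**
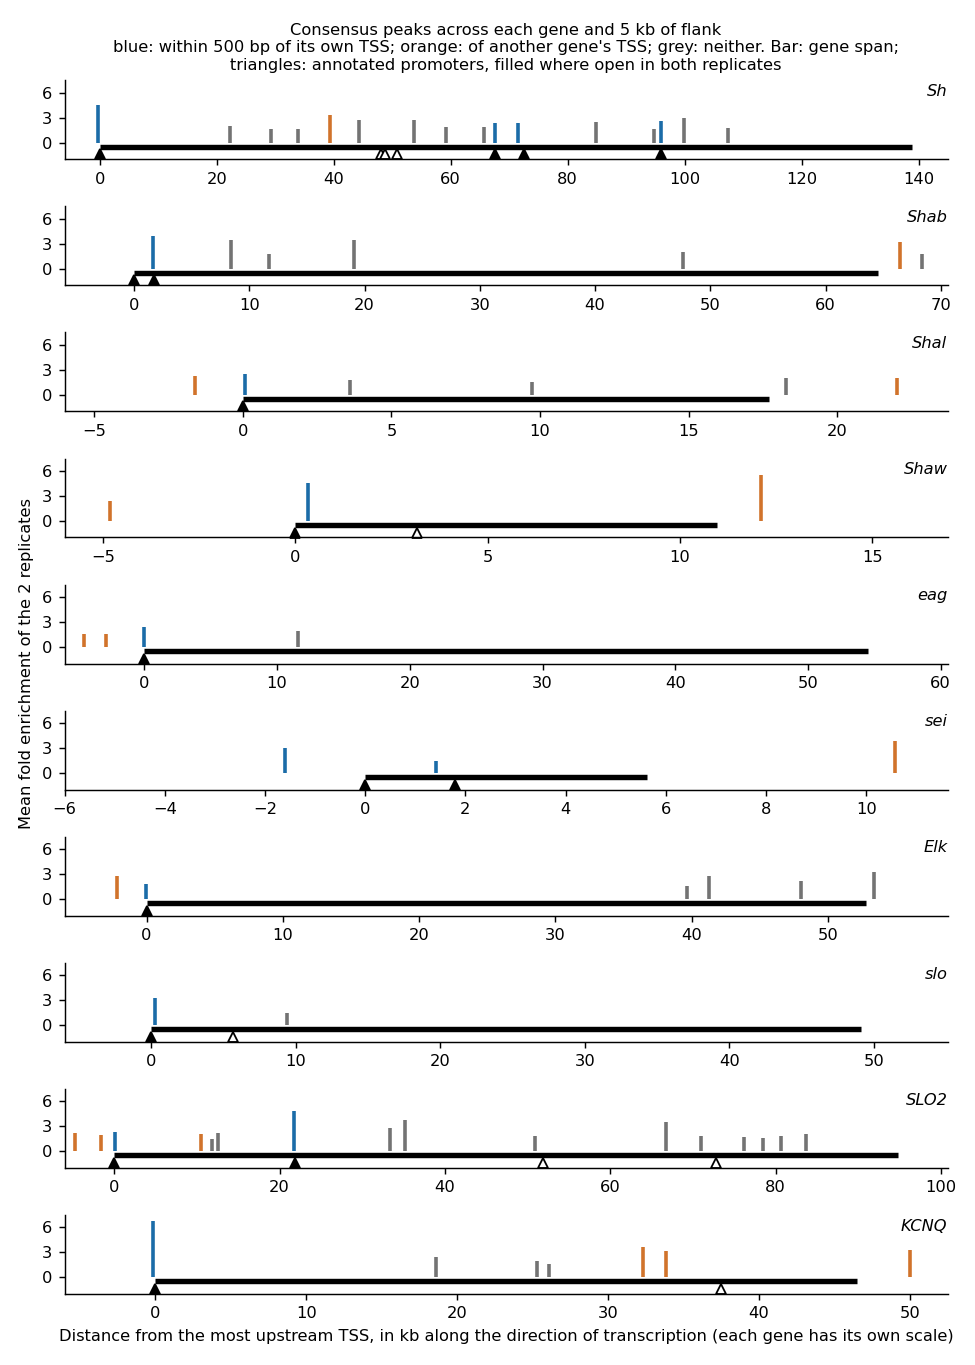
Consensus peaks across each gene and 5 kb of flank, drawn at the summit with the mean fold enrichment of both replicates (y axis) against the distance from the most upstream start site in kb (x axis, with its own scale per gene). Blue marks peaks within 500 bp of a start site of the gene itself, orange those near another gene's alone, and grey the rest. The bar is the gene span and filled triangles are open promoters. Sh and SLO2 have 16 peaks each, eag and slo have long stretches without any, and the tall blue peak of sei has its summit at tsr.

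Beyond the promoters, the genes also differed in their intron peaks. The windows held 82 peaks in replicate 1 and 85 in replicate 2, which merged into 70 consensus peaks and 25 regions seen in 1 replicate. By position, 33 of the consensus peaks were in introns and more than 500 bp from any start site, 15 were near a start site of the gene itself, 16 near that of another gene alone, 3 in exons and 3 in the flanks. Altogether 31 of 70 (44.3%) lay within 500 bp of any start site, beside 57.3% of all 11705 consensus peaks. Sh and SLO2 had 16 consensus peaks each, of which 11 each were in introns away from start sites, while slo had 2 in all. Sh and SLO2 are also the longest of the 10 genes. Per 10 kb of gene, Sh had 1.15 and SLO2 1.48 consensus peaks, in a range from 0.367 in eag to 1.78 in sei. The sei value rests on 1 consensus peak in a gene of 5.625 kb.

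The strongest single intron peaks lay in SLO2 and Shab, but the 11 SLO2 intron peaks were not strong as a group. Placed by the percent of peaks in the same list with lower fold enrichment, averaged over replicates, their median was 45.9. The median was 49.1 for the 11 intron peaks of Sh and 85.8 for the 3 of Shab. The SLO2 peaks ranged from 15.9 to 90.1. In SLO2 the peak from 10381252 to 10382246 had 3.82 and 3.65, and that from 10349653 to 10351029 had 3.79 and 3.32. Both were above the 2.31 and 2.38 of the most upstream SLO2 promoter in both replicates. In Sh the strongest intron peaks were weaker, with 2.86 and 3.09 from 17962769 to 17963906, 2.79 and 2.69 from 18018226 to 18019194, and 3.03 and 2.43 from 18008453 to 18009762. The last of these also moved the most between replicates of the peaks named here. The peak of CG6867, a gene inside a Sh intron, had 3.44 and 3.15.

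Other genes of the set had long stretches with no peak in either replicate. The longest was 41.4 kb in eag (75.9% of the gene), 39.4 kb in Elk (74.7%) and 34.7 kb in slo (70.7%), but 13.8 kb in SLO2 (14.6%) and 31.2 kb in Sh (22.4%). For the 7 genes of at least 40 kb the median share was 38.3%, and for all 468 protein-coding genes of that length it was 32.7%. The median density within the gene was 1.05 consensus peaks per 10 kb for the 10 genes, beside 1.29 for genes of at least 5 kb and 0.874 for those of at least 40 kb. An absent peak means only that none passed the peak caller's threshold at this depth.

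For 7 of the 10 genes the strongest peak of the window lay at a start site of the gene itself. The share was 39.6% of all genes with a consensus peak in such a window, with or without a TSS peak. The exceptions were Shaw, sei and Elk. For Shaw it was the CG10019 peak, for sei the peak of eEF5 and ppk29 at 3.73 and 3.92, and for Elk the peak past its end. The count was 9 with the gene span alone and 5 by summit pileup.

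**Figure D4:**
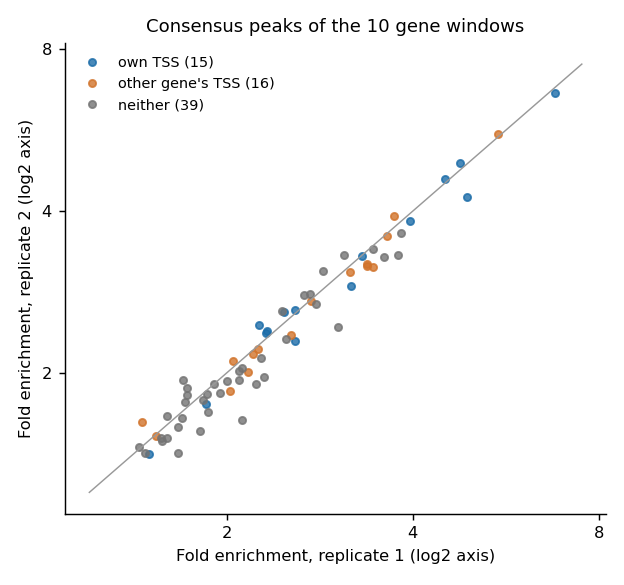
Fold enrichment in replicate 2 (y axis, log2 scale) against replicate 1 (x axis, log2 scale) for the 70 consensus peaks of the 10 gene windows. Colour separates peaks within 500 bp of a start site of the gene itself, those near another gene's alone, and the rest. Where a region holds several peaks of a replicate the strongest is plotted. The grey line marks equal values, and the peaks lie close to it over the whole range.

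The 2 replicates ordered the peaks of these genes in much the same way. Over the 68 regions with 1 peak in each replicate, Spearman's rho was 0.972, as a description across peaks that share libraries, and over all 10885 such regions it was 0.965. The median size of the log2 ratio between replicates was 0.07 for these genes and 0.08 for all, and the largest for these genes was 0.37. The consensus peaks of the set had a median width of 874.5 bp, beside 908 bp for all, and a median GC content of 49.8% around the summit, beside 48.3%.

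Short motifs were searched as exact letters on either strand within 100 bp of the summits of the 70 consensus peaks. They include binding sites of factors that act downstream of neuronal activity. The cAMP response element CRE (TGACGTCA) matched in 0 peaks, beside 0.513% of all consensus peaks, the AP-1 site (TGANTCA) in 3, beside 3.46%, the EGR site (GTGGGCG) in 5, beside 6.25%, and the NBRE of nuclear receptors such as Hr38 (AAAGGTCA) in 1, a peak of Elk, beside 0.367%. Of the general promoter letters, the GA repeat (GAGAGAG) matched in 7, beside 9.87%, the DNA replication-related element (TATCGATA) in 1, beside 3.02%, TATAAA in 8, beside 14.9%, and the E-box (CAGCTG) in 9, beside 13.99%. At least 1 of the 8 motifs was found in 30 peaks, beside 43.6% of all.

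A pair of intron peaks is shown for how matches can lie together. The sequence from Sh lies in the strongest intron peak of that gene, and its capitals mark a GA repeat, read on the other strand, followed by an AP-1 site. The sequence from slo lies in its only intron consensus peak, which had 1.44 and 1.46, and its capitals mark a pair of EGR sites.
Sh intron, chrX:17963432-17963511, minus strand: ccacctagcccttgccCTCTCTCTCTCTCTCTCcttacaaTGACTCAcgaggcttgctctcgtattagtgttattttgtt
slo intron, chr3R:24671852-24671911, plus strand: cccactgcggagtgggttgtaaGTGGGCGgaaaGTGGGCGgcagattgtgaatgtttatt

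Other potassium channel genes were read in the same way from a list of 10 further subunits and 4 accessory or regulatory genes. A TSS peak in both replicates was found for 11 of 14, for 7 of the subunits and all 4 accessory genes, and their median percentile was 69.8. The highest were Shawl, a Shaw relative, at 97.8 ± 0.0792, Slob, which binds the Slo channel, at 93.5 ± 2.94, and SKIP, named for its interaction with Shal, at 93.0 ± 2.27 (SD, n = 2 each). The inward rectifiers Irk1 and Irk2 were lowest at 15.4 ± 4.13 and 15.8 ± 2.19, with Task7, a leak channel subunit, at 26.7 ± 3.70 (SD, n = 2 each). Irk3 and the leak channels Ork1 and sand had no TSS peak in either replicate.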

How the data were processed

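ATAC-seq peaks of 2 naive MB samples were read as deposited, 1 list per replicate. The authors trimmed reads with Trimmomatic 0.39, aligned them with Bowtie2 2.4.1 to dm6, shifted them for the Tn5 offset, dropped multiply mapped, mitochondrial, scaffold and duplicate reads, and called peaks with MACS2 2.1.2 at a q-value of 0.01 in each replicate. No control library was named. The deposited fold enrichment is a ratio of pileup to local background with a pseudocount of 1; the authors' lists also give −log10 p-values and −log10 q-values, the summit offset, and an integer score that was not used. Open DNA around a summit raises the background and lowers the ratio.

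Pileup and background were solved from the fold enrichment and the Poisson p-value, and each pileup came out within 0.0183 (replicate 1) and 0.0221 (replicate 2) of a whole number. Intervals (exact Poisson, 95%) and the exact conditional binomial test, with the background taken as known, cover counting error only, and p-values compare promoters within a library. Start sites came from Ensembl release 115, sequences from the RefSeq Release 6 assembly. Peaks were merged across replicates at an overlap of at least 1 bp. The 10 genes, the marker and channel gene lists and the motifs were chosen with earlier results of these data known; all members are named, and of the other channels those without a peak and the 3 highest and 3 lowest. Scripts (Python 3.11.15, scipy 1.17.1) were tested on simulated data. Alternatives covered distances, the merging rule, stricter peaks, the ranking measure and each replicate alone.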

Additional observations from a re-analysis of the deposited data

How the results depend on the processing

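Of 166 recomputed values, 105 moved by less than the spread between replicates or the tolerance set for counts, and 61 moved by more. Reversals of order were not counted, and by pileup Elk and Shal ranked above Sh, and slo above KCNQ. The median percentile of the 10 genes, 77.7, became 84.6 where the peak had to cover the start site, over 9 genes. That rise came with the loss of sei, and each of the 9 genes left had a lower percentile than before. The median was 66.9 with the most upstream start site alone, where SLO2 fell to 36.0. With TSS peaks near another gene's start left out, an alternative chosen after seeing the data, 6 genes still had such a peak in each replicate, at a median percentile of 86.7. Shaw, eag, sei and slo dropped out. Of the genes left, Sh, Shab, SLO2 and KCNQ had lower percentiles than before, and Shal and Elk had higher ones. The share of all genes that keep a peak under that rule was not computed. Of the promoter pairs, 2 in place of 5 differed when pileups were compared without the background. At least 1 motif was found in 14 of the 70 peaks within 50 bp of the summit, in 56 over whole peaks, and in 16 of the 39 peaks over 500 bp from any start site. The share of all consensus peaks with at least 1 motif was not computed for these settings, which differ in the length or the peaks searched. Using either replicate alone moved no main count beyond these limits. For percentiles, including the median, it could not do so, because the limit is the SD of those same 2 replicate values. Those percentiles are included in the 105 and say nothing about stability. A comparison of promoters by −log10 q was not run, as it has no counting test. No paired analysis was possible because there was 1 group and no contrast between groups. Depth limits weak peaks most: the median pileup of 219 and 216 carries a counting error of 6.76% and 6.80%, and promoters without a peak may hold enrichment below the threshold.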

Other observations

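Matches of the CRE, which is bound by CrebB, were absent near the summits but present farther out in the peaks of the potassium channel genes. Over the whole length of the 70 consensus peaks, 5 peaks (beside 2.43% of all 11705 consensus peaks) held 6 matches of TGACGTCA. They lay in 3 intron peaks of Sh, 1 intron peak of Shab and the peak at SLO2 promoter 2, which held 2, and were 106 to 633 bp from the summit. The search over whole peaks was an alternative to that around the summits, and this motif was singled out after its values were seen. The 4 intron sites of Sh and Shab are shown with 16 bases on either side, 5′ to 3′ on the strand of the gene, with the CRE in capitals. The 3 Sh peaks had fold enrichments of 1.71 and 1.76, of 1.60 and 1.66, and of 2.79 and 2.69 in replicates 1 and 2, in the order printed, and the Shab peak had 3.45 and 3.40. Whether CrebB binds there was not tested.
Sh intron, chrX:17955591-17955630, minus strand: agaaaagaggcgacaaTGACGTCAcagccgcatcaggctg
Sh intron, chrX:17968533-17968572, minus strand: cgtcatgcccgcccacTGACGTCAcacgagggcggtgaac
Sh intron, chrX:18018364-18018403, minus strand: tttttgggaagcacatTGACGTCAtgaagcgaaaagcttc
Shab intron, chr3L:2913892-2913931, plus strand: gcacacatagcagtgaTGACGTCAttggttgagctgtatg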
